A study of Mus musculus with 8 samples.

Results

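Adrenergic receptors are the cell surface receptors through which noradrenaline from sympathetic nerves reaches brown fat, and 8 of them are described here: Adrb1, Adrb3, Adra1a, Adra1b, Adra1d, Adra2a, Adra2b and Adra2c. They were taken by gene symbol from the deposited table, where each had 1 transcript cluster (a set of probes that together read 1 gene), and they are 8 of the 21759 genes tested. The tissue was brown adipose tissue of male C57BL/6 mice in groups labelled HFD and NCD, with 4 arrays each (Affymetrix Mouse Gene 1.0 ST). HFD stands for high-fat diet in the series title, while NCD has no expansion there or in the labels, and neither age nor feeding time was known for this work. Whether the 4 arrays of a group were 4 animals is not recorded, so the p-values reflect spread among these samples, which may be technical.

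Noradrenaline acts on brown adipocytes mainly through beta receptors, which couple to the stimulatory G protein Gs, raise cyclic AMP and so switch on lipolysis and heat production. In rodent fat the beta-3 receptor is the adipocyte's characteristic form. Alpha-1 receptors couple to Gq and act through phospholipase C and calcium, both in fat cells and in vascular smooth muscle. Alpha-2 receptors couple to Gi, lower cyclic AMP and also sit on sympathetic nerve endings, where they restrain noradrenaline release.

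None of the 8 receptors passed the threshold between diets, and Adrb3 stood furthest from zero, with a lower mean in HFD. Of the 8 receptors 0 passed a limma adjusted p of 0.05 over all genes, where 31 of 21759 genes did (0.142%). At an unadjusted p under 0.05, 1 of the 8 (Adrb3) stood apart, where 7.24% of all genes did. Group means were higher in HFD for 4 receptors, lower for 3 and equal for 1, and 52.5% of all genes had a lower mean in HFD. The median difference over the 8 was 0.03 on the log2 scale, against -0.01 over all genes tested. The HFD and NCD arrays overlapped for all 8, while 3.83% of all genes had groups that did not overlap.

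**Figure D1:**
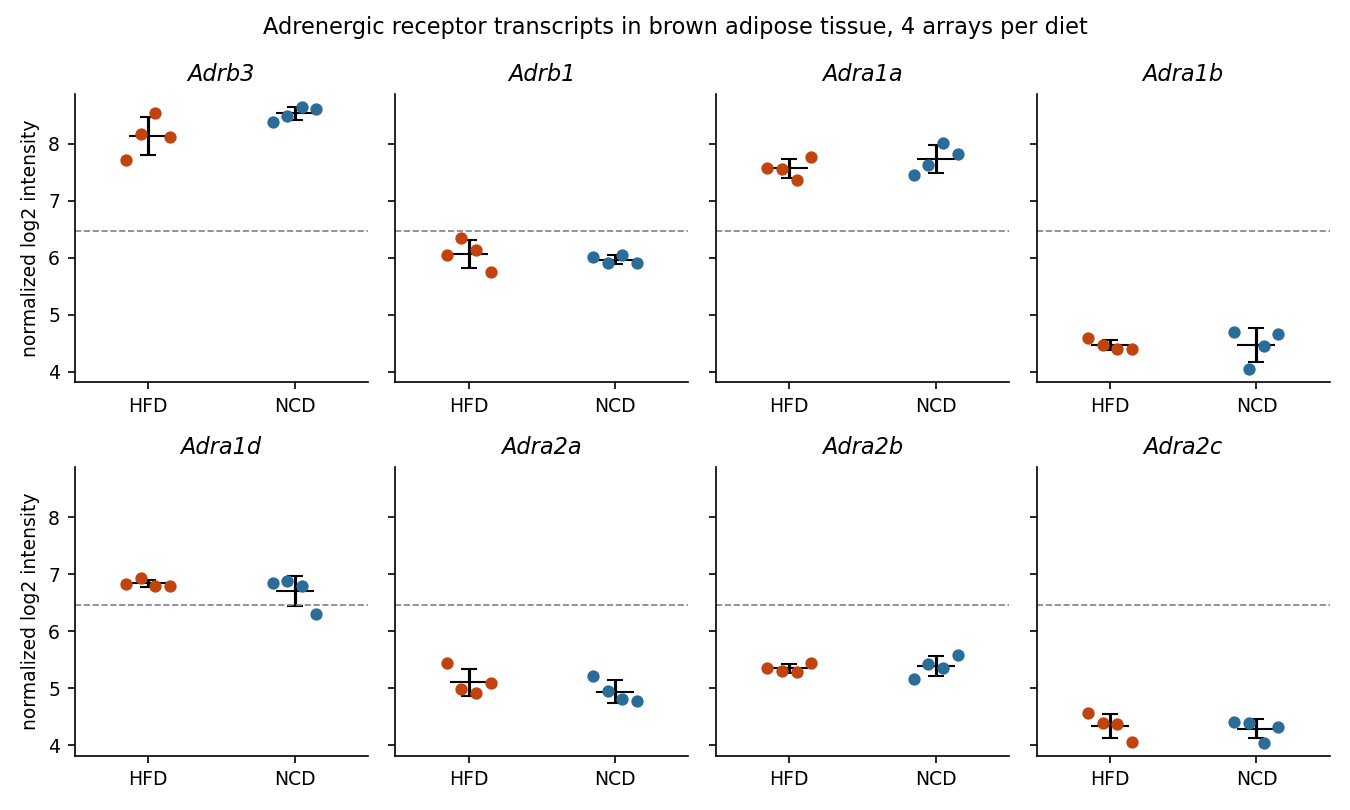
Normalized log2 intensity (vertical axis) of the 8 receptors on each of the 4 HFD and 4 NCD arrays. Dots are arrays, the horizontal mark is the group mean and the bar its standard deviation. The dashed line at 6.46 is the level under which 95% of olfactory receptor genes lay. Adrb3, Adra1a and Adra1d have means above the line, and the diets overlap in every panel.

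The signals of different clusters come from different probes and cannot be ranked against each other as amounts of RNA. To judge which receptors gave a signal above background, each was set beside 1119 olfactory receptor genes, a stand-in for genes that fat does not use, taken with the data known. Their median level was 4.50 and their 95th percentile 6.46. Means over all arrays of 3 receptors lay above that percentile (Adrb3, Adra1a and Adra1d) and 5 below it. Adrb3 and Adra1a were above it on 8 of 8 arrays and Adra1d on 7. Adra1b and Adra2c had means below the olfactory median itself. For the 5 dim receptors a difference in RNA could be hidden in background signal, so their small differences say little about the transcript.

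Adrb3, the receptor through which noradrenaline chiefly drives rodent brown adipocytes, had log2 levels of 7.71, 8.17, 8.53 and 8.11 on HFD 1 to HFD 4, against 8.38, 8.49, 8.64 and 8.61 on NCD 1 to NCD 4. Of the HFD arrays 3 lay below the lowest NCD array, and HFD 3 lay inside the NCD range. The mean was 8.13 ± 0.34 in HFD and 8.53 ± 0.12 in NCD (SD, n = 4 each), so the HFD arrays were more spread out. The difference was -0.40 ± 0.15 (SE) on the log2 scale, a 1.32-fold lower mean, with an unadjusted 95% interval from -0.72 to -0.08 and an adjusted p of 0.566. In folds that interval runs from 1.06 to 1.65 lower in HFD. An exact two-sided permutation test over the 70 assignments of arrays gave p = 0.0857, where the smallest p it can give is 0.0286. A lower mean of at least that size was seen for 1.42% of all genes, dim ones included. By limma p, in either direction, Adrb3 ranked 683 of 21759. Without HFD 1, the array of lowest signal, the difference was -0.26 (adjusted p = 0.949) and its interval held zero (-0.56 to 0.04), as it did without NCD 2 and NCD 3 together (-0.78 to 0.05). The methods' t-test gave Adrb3 an unadjusted p of 0.0659, from an equal-variance test on the log2 values without limma's shared variance. The authors' deposited table gives Adrb3 a p of 0.09 and a signed fold of -1.32. The equal-variance test did not reproduce that deposited p, and how the authors computed it was not tested. Where the methods' test is named further on, this equal-variance form is meant, which may not be the form the authors used.

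**Figure D2:**
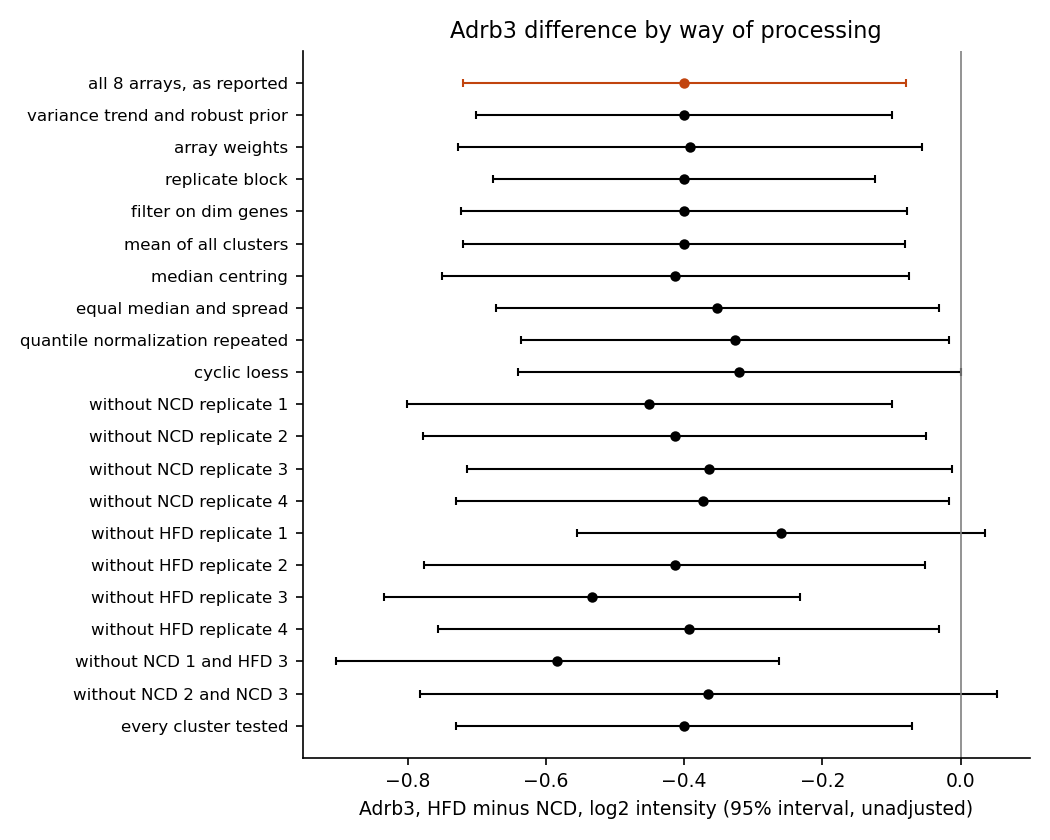
Adrb3 difference, HFD minus NCD, in log2 intensity (horizontal axis) with unadjusted 95% limma intervals, for all 8 arrays (orange, top) and under 20 other ways of processing (black). Every estimate is below zero, and the interval holds zero without HFD 1 and without NCD 2 and NCD 3. Estimates run from -0.26 without HFD 1 to -0.58 without NCD 1 and HFD 3.

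Adrb1, the other beta receptor described here, which in rodent brown fat is linked more to precursor cells, had a level of 6.05, 6.34, 6.13 and 5.75 on HFD 1 to HFD 4, against 6.02, 5.90, 6.04 and 5.90 on NCD 1 to NCD 4. The HFD arrays lay on both sides of the NCD arrays. Means were 6.07 ± 0.24 in HFD and 5.97 ± 0.08 in NCD (SD, n = 4 each), and the difference of 0.10 ± 0.13 (SE) had an interval from -0.17 to 0.38 (adjusted p = 0.906). It rests on single arrays, at 0.01 without HFD 2 and 0.21 without HFD 4. Whether the beta receptors' differences differ from each other was not tested.

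**Figure D3:**
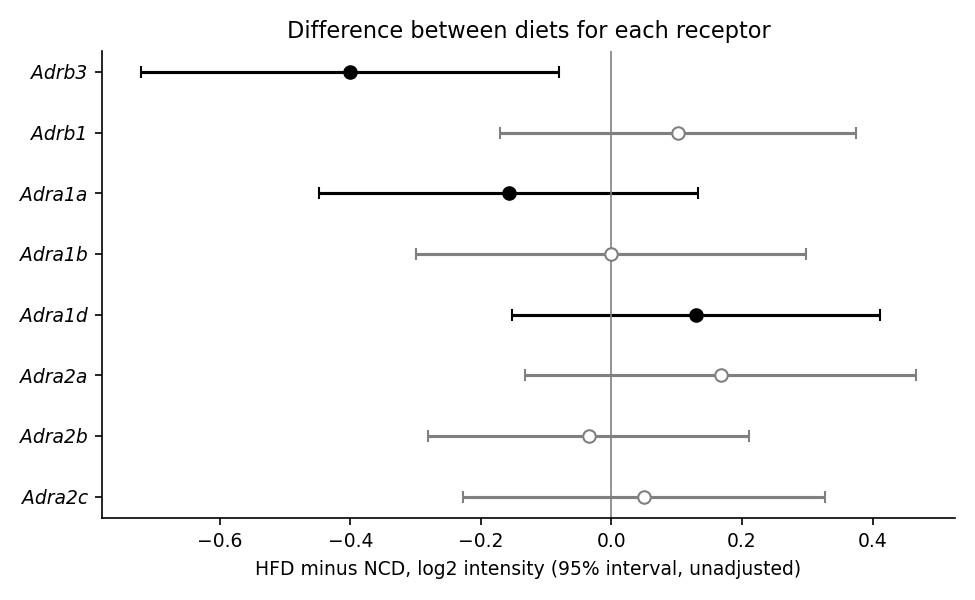
Difference between diets, HFD minus NCD, in log2 intensity (horizontal axis) for each receptor, with its unadjusted 95% interval from limma. Filled points are receptors with a mean above the 95th percentile of olfactory receptor genes and open points those below it. The interval of Adrb3 (-0.72 to -0.08) lies below zero with all 8 arrays, though not without HFD 1 (-0.56 to 0.04), and the other 7 contain zero.

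The alpha-1 receptors split 3 ways: 1 mean higher in HFD, 1 lower and 1 equal. Adra1a, a Gq-coupled receptor, had a level of 7.58, 7.56, 7.37 and 7.77 on HFD 1 to HFD 4, against 7.45, 7.62, 8.02 and 7.82 on NCD 1 to NCD 4. Only NCD 3 and NCD 4 lay above every HFD array. Its difference was -0.16 ± 0.14 (SE), with an interval from -0.45 to 0.13 (adjusted p = 0.856). That value was -0.06 without NCD 3, -0.09 without HFD 3 and -0.25 without NCD 1, and -0.08 after cyclic loess.

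Adra1d, a second Gq-coupled form best known from arteries, had a level of 6.82, 6.94, 6.79 and 6.80 on HFD 1 to HFD 4, against 6.84, 6.88, 6.80 and 6.31 on NCD 1 to NCD 4. Apart from NCD 4 the arrays of both diets lay within the same narrow band. The difference of 0.13 ± 0.13 (SE, adjusted p = 0.883) rests on that array, since without it the value was -0.0025. Adra1b, the third of this class, ranged from 4.40 to 4.59 in HFD and from 4.05 to 4.70 in NCD, and both means were 4.47 (difference 0.00, interval from -0.30 to 0.30). Its mean lay just under the olfactory median.

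Among the Gi-coupled alpha-2 receptors 2 means were higher and 1 was lower in HFD, and all 3 clusters were dim. Adra2a, the form that restrains both adipocyte cyclic AMP and nerve endings, had a level of 5.45, 4.98, 4.91 and 5.09 on HFD 1 to HFD 4, against 5.22, 4.95, 4.82 and 4.77 on NCD 1 to NCD 4. HFD 1 and NCD 1 stood highest in their groups, and the groups overlapped over most of their range. The difference was 0.17 ± 0.14 (SE), with an interval from -0.13 to 0.47 (adjusted p = 0.852). It was 0.05 without HFD 1, 0.11 without NCD 4 and 0.26 without NCD 1. Adra2b ranged from 5.29 to 5.45 in HFD and from 5.17 to 5.59 in NCD (difference -0.03 ± 0.12 SE, adjusted p = 0.974). Adra2c ranged from 4.06 to 4.56 in HFD and from 4.05 to 4.41 in NCD (difference 0.05 ± 0.13 SE, adjusted p = 0.962). The sign of Adra2b turned without NCD 4 (0.03), and that of Adra2c turned in 4 of 20 alternatives, 1 of them a scaling (arrays set to equal median and spread, -0.0043).

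For the clusters other than Adrb3, the intervals give a range for the change in signal with all 8 arrays. They do not bound a change in RNA for the 5 dim receptors. Over those 7 receptors the widest limits were -0.45 and 0.47 on the log2 scale, so on these arrays signal changes beyond 1.38-fold in either direction lay outside every unadjusted 95% interval. Standard errors of the 8 differences ran from 0.12 to 0.15, close to the median of 0.127 over all genes. In data simulated with these spreads the fit over all genes recovered 38% of 1.5-fold changes and 92% of 2-fold changes, so a difference of the size measured for Adrb3 (1.32-fold) is below what 4 arrays a group usually bring past the threshold.

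Adrb3 lies on chromosome 8, minus strand, from 28336248 to 28340060 in the coordinates of the file, whose genome build no source names. Adrb1 (chromosome 19, from 56796862 to 56798262) and Adra2a (chromosome 19, from 54119723 to 54123472) share a chromosome, as do Adra1d (chromosome 2, from 131371093 to 131388021) and Adra2b (chromosome 2, from 127189022 to 127192957). Adra1a spans chromosome 14 from 67254095 to 67356642, Adra1b chromosome 11 from 43588108 to 43714712 and Adra2c chromosome 5 from 35621363 to 35624530. All 8 accessions matched RefSeq genes of the same symbol and chromosome in GRCm38.p6. The Adrb1 cluster spans 1401 bases in the file, 46.2% of the RefSeq gene length, against 75.2% for Adrb3 and 75.4% for Adra1a and 97.4% to 101% for the other 5. These are spans of clusters, and the exons or untranslated regions that single probes fall in were not used here.

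Markers of other cells varied between arrays, and their part in the receptor values was not tested. In whole tissue, fewer cells of a type and less RNA per cell cannot be told apart. The mean of 16 skeletal muscle markers was 9.67 on HFD 3 and 8.99 on NCD 1, and between 5.63 and 5.99 on the other arrays; 8 of the 16 had means above the olfactory 95th percentile. Over groups it ranged from 5.65 to 9.67 in HFD and from 5.63 to 8.99 in NCD. Those arrays were the lowest of their group for Adra1a (7.37 and 7.45), and for Adrb3 HFD 3 was the highest of its group and NCD 1 the lowest. Without HFD 3 and NCD 1 the Adrb3 difference was -0.58 (adjusted p = 0.229) and that of Adra1a -0.18.

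The tissue label was checked against its defining genes. Ucp1, the uncoupling protein that makes heat in brown fat, had a level of 12.79 to 12.92 in HFD and 12.85 to 12.95 in NCD, near the top of the arrays' range (13.79). Of 12 brown adipocyte markers, 10 had means above the olfactory percentile, and the list mean ranged from 8.56 to 8.77 in HFD and from 8.67 to 9.02 in NCD. Of these 12, 10 had lower means in HFD, as had 52.5% of all genes, and 1 passed the threshold. That 1 was Elovl3 (difference -1.39), which weighs on the list mean. For 10 markers of adipocytes of any kind the list mean ranged from 9.28 to 9.32 in HFD and from 9.11 to 9.36 in NCD. Vascular smooth muscle and pericyte markers, the cells in which alpha-1 receptors also act, ranged from 7.30 to 7.68 in HFD and from 7.15 to 7.45 in NCD. Within each group this list mean was highest on HFD 3 and NCD 1, the arrays of high skeletal muscle markers. Whether muscle RNA raised it, for example through the listed gene Des, was not tested. Of these 10 markers, 5 had means above the percentile. Endothelial markers (9 of 9 above it) ranged from 8.13 to 8.43 in HFD and from 8.03 to 8.26 in NCD, and macrophage markers (6 of 9) from 6.68 to 7.10 in HFD and from 6.62 to 7.07 in NCD. Schwann cell markers (2 of 9) ranged from 6.43 to 6.49 in HFD and from 6.40 to 6.47 in NCD.

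**Figure D4:**
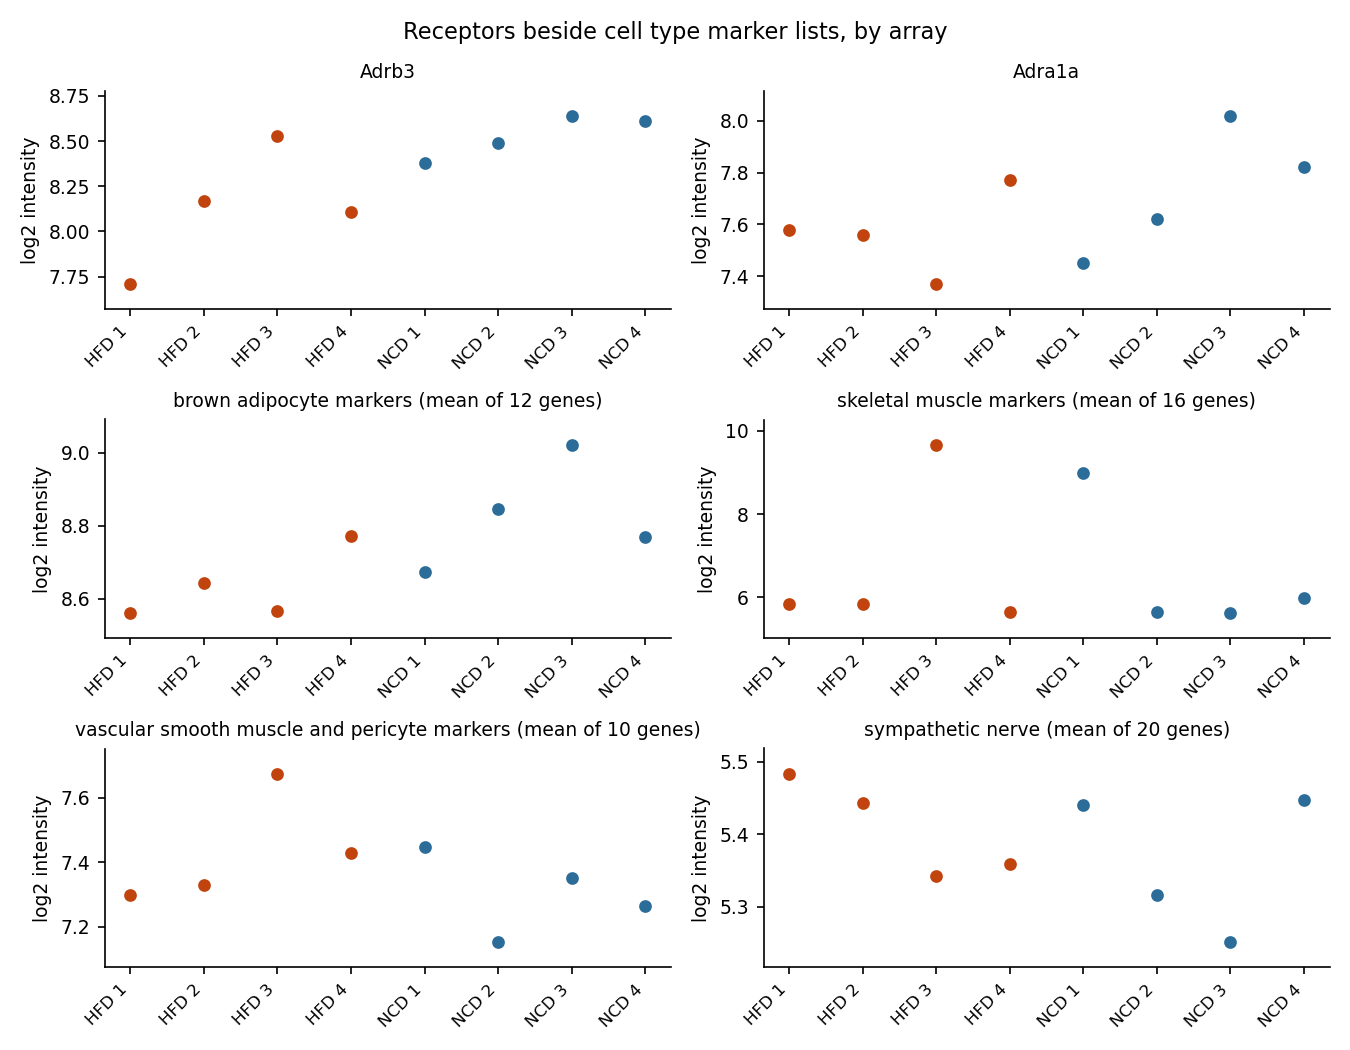
Log2 intensity (vertical axes, each panel with its own range that does not start at zero) of Adrb3, Adra1a and the means of 4 gene lists on HFD 1 to HFD 4 and NCD 1 to NCD 4. Muscle markers stand at 9.67 on HFD 3 and 8.99 on NCD 1, far above the other arrays, and Adra1a is lowest of its group on both.

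Genes that carry or limit the receptors' signal were taken from 8 lists chosen with earlier results of these data known. Together they held 152 measured genes, of which 1 fell, 0 rose and 151 did not pass. Over all genes 31 of 21759 passed (0.142%). An unadjusted limma p under 0.05 was seen for 7.24% of all genes. Among the lists it was seen for 3 of 9 uptake and breakdown genes, 6 of 22 other receptors and 4 of 25 targets. It was also seen for 4 of 31 cyclic AMP genes, 2 of 15 kinase, arrestin and RGS genes and 1 of 17 phospholipase C genes. The G protein list (0 of 14) and the nerve list (0 of 20) held no such gene. The counts of higher and lower means given below stand beside 52.5% of all genes with a lower mean in HFD. The gene that fell was Elovl3, a cold-responsive fatty acid elongase. List medians ran from -0.11 to 0.05, against -0.01 over all genes tested. Apart from Ucp1, the genes named per list below were those called or of smallest p, a choice that favours groups without overlap. Over all genes 3.83% had such groups. Without overlap, Elovl3, Adrbk2, Akap5, Adcy10, Prkaca, Hk2, Nr4a2 and Gpr81 lay lower in HFD, and Rgs5, Sult1a1 and Ptger4 lay higher.

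Transcripts for the noradrenaline supply were dim. In the list of sympathetic nerve and catecholamine synthesis genes 0 of 20 passed, 14 means were higher and 6 lower in HFD (median 0.05), and 1 of 20 had a mean above the olfactory percentile. The cell bodies of sympathetic neurons lie outside the depot. The smallest p belonged to Uchl1, a neuronal ubiquitin hydrolase, with a mean of 4.98 in HFD and 5.15 in NCD (difference -0.17, adjusted p = 0.815), and to Dbh, which makes noradrenaline from dopamine, with 4.71 in HFD and 4.51 in NCD (difference 0.20, adjusted p = 0.819).

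Of 9 genes of catecholamine uptake and breakdown 0 passed, with 6 lower and 3 higher means in HFD (median -0.09). Maob, a monoamine oxidase of the mitochondrial outer membrane, had a mean of 8.22 in HFD and 8.63 in NCD (difference -0.41, adjusted p = 0.531). Sult1a1, a sulfotransferase of phenols and catechols, had a mean of 8.39 in HFD and 7.91 in NCD (difference 0.49, adjusted p = 0.338).

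Directly below the receptors, 0 of 14 G protein subunits passed, with 9 lower and 5 higher means (median -0.11). Gna11, a Gq-class alpha subunit, averaged 7.61 in HFD and 7.92 in NCD (difference -0.31, adjusted p = 0.699). Gng5, a gamma subunit, averaged 8.74 in HFD and 8.57 in NCD (difference 0.18, adjusted p = 0.801), on a cluster that the file places on chromosome 16 while the RefSeq gene lies on chromosome 3. Of 15 receptor kinases, arrestins, anchoring and RGS proteins 0 passed (9 lower and 6 higher means, median -0.11). Adrbk2 (current symbol Grk3), a kinase that phosphorylates activated receptors, averaged 7.22 in HFD and 7.65 in NCD with no overlap between arrays (difference -0.43, adjusted p = 0.282). Akap5, which anchors protein kinase A beside beta receptors, averaged 6.35 in HFD and 6.65 in NCD, also with no overlap (difference -0.31, adjusted p = 0.480). Its HFD arrays (6.29 to 6.43) all lay in the background range.

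In the cyclic AMP arm 0 of 31 genes passed, with 17 lower and 14 higher means (median -0.02). Prkaca, the catalytic subunit of protein kinase A, had a level of 7.84, 7.80, 7.76 and 7.96 on HFD 1 to HFD 4, against 8.03, 8.19, 8.23 and 8.12 on NCD 1 to NCD 4. The HFD arrays lay wholly below the NCD arrays (difference -0.30, adjusted p = 0.521). Adcy10, the bicarbonate-responsive cyclase, differed by -0.38 (adjusted p = 0.403) between means of 4.70 in HFD and 5.08 in NCD, both in the background range. In the phospholipase C and calcium arm 0 of 17 passed (9 higher and 8 lower means, median 0.00). Rgs5, a brake on Gq and Gi signalling that marks pericytes, averaged 11.29 in HFD and 10.93 in NCD (difference 0.35, adjusted p = 0.429), and Prkch, a protein kinase C, averaged 7.46 in HFD and 7.12 in NCD (difference 0.34, adjusted p = 0.707).

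Among 25 genes that adrenergic stimulation is known to induce or act on in brown fat, 1 fell, 0 rose and 24 did not pass (median -0.05). Elovl3 had a mean of 5.82 in HFD and 7.20 in NCD (difference -1.39, adjusted p = 0.00673), the HFD mean being in the background range, and its call was lost without NCD 2 and NCD 3 together (-1.05, adjusted p = 0.149) and with the methods' t-test (adjusted p = 0.414). Ucp1 differed by -0.05 ± 0.10 (SE, interval from -0.27 to 0.17, adjusted p = 0.945), and so near the top of the range a change in its RNA could go unseen. Hk2, a hexokinase, averaged 8.95 in HFD and 9.46 in NCD (difference -0.51, adjusted p = 0.265), and Nr4a2, an early-response nuclear receptor, 7.00 in HFD and 7.35 in NCD (difference -0.35, adjusted p = 0.472).

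Other receptors, listed as coupled to Gs or Gi in adipocytes, were split evenly: 11 of 22 means were higher and 11 lower, 0 passed and the median was 0.00. Only 6 of the 22 had means above the olfactory percentile. At an unadjusted limma p under 0.05 there were 6 of the 22, where 7.24% of all genes stood, in a list chosen with earlier results known. Gpr81 (current symbol Hcar1), the Gi-coupled lactate receptor, averaged 5.26 in HFD and 6.02 in NCD (difference -0.76, adjusted p = 0.220). Ptger4, a Gs-coupled prostaglandin E2 receptor, averaged 5.55 in HFD and 5.05 in NCD (difference 0.50, adjusted p = 0.274). Both were separated between the diets, and both lay under the olfactory percentile on all arrays.

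**Figure D5:**
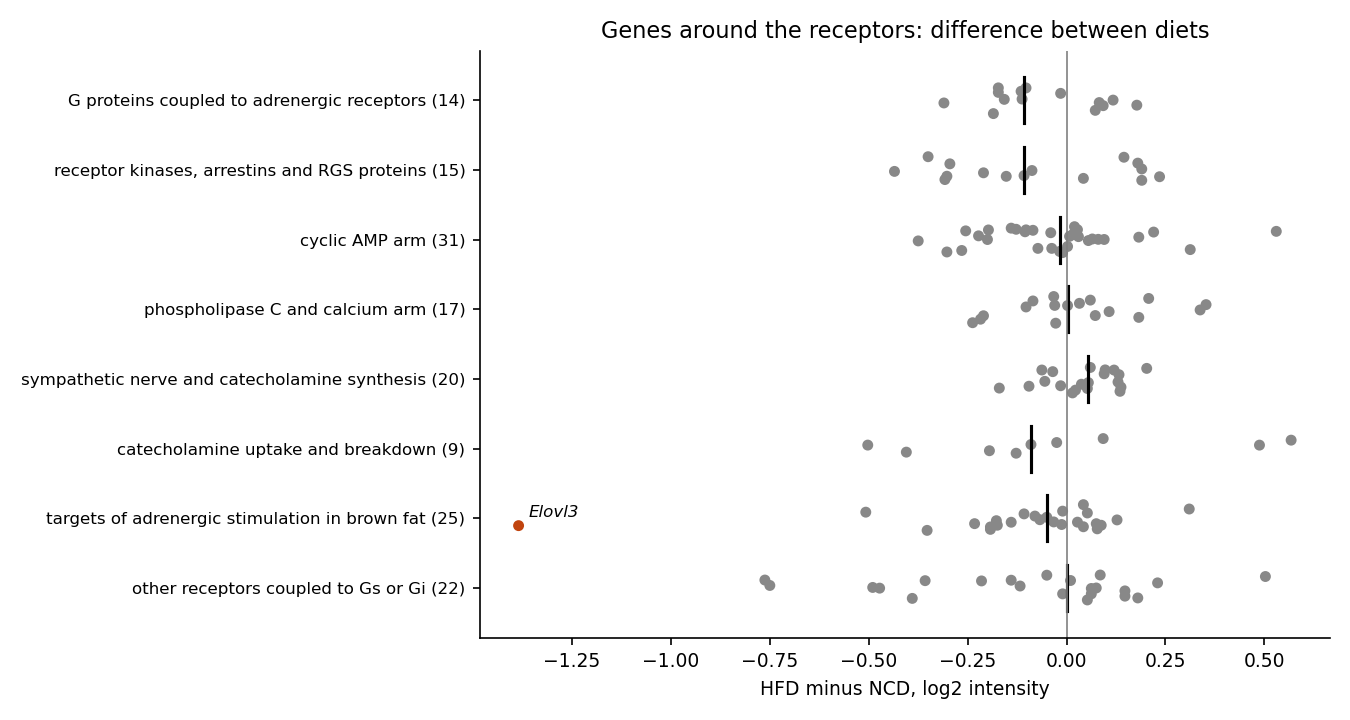
Difference between diets, HFD minus NCD, in log2 intensity (horizontal axis) for each gene of the 8 signalling lists, whose sizes stand in parentheses. Grey dots did not pass the threshold, the orange dot did, and black marks are list medians. Elovl3 (-1.39) is the orange dot.

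Over the 8 arrays, 5 genes among 6883 with a mean above the olfactory percentile had profiles closest to that of Adrb3 by Pearson correlation, given as a description, since the points share arrays and the genes were picked as the highest of many. Rrm2b, a ribonucleotide reductase subunit, had r = 0.988 and kept 0.983 after group means were removed. Its levels were 7.45, 7.71, 8.03 and 7.73 on HFD 1 to HFD 4, against 7.92, 8.07, 8.19 and 8.15 on NCD 1 to NCD 4, lowest on HFD 1 and NCD 1 and highest on HFD 3 and NCD 3, as for Adrb3. The RNA helicase gene Ddx24 (r = 0.938), the sodium channel gene Scn7a (0.937), the splicing factor gene Smndc1 (0.936) and the heat shock protein gene Hspa1a (0.934) followed. Like Adrb3, these 5 did not pass between diets (differences of -0.12 to -0.35).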

How the data were processed

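The authors took logs of the array intensities and applied quantile normalization in Affymetrix Power Tools, per the series' design text and the submitters' processing notes. The deposited values are normalized log2 intensities with 2 decimals. Their distributions were not identical between arrays, with medians of 5.91 to 5.99 and SDs of 1.69 to 1.82. No source names the summarization, background correction or build. The deposited table also holds the authors' p-value and a signed fold score per cluster.

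The brightest cluster by mean over 8 arrays stood for each gene. HFD minus NCD was fitted over 21759 genes with limma 3.58.1 in R 4.3.3 (lmFit, eBayes, prior of 8.87 degrees of freedom), two-sided, Benjamini-Hochberg adjusted, with a threshold of 0.05. Arrays have no count depth, so their number limits precision. Of 236 listed symbols 232 matched, 5 of them through the current RefSeq symbol.

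Receptors and lists were chosen with earlier results of these data known. The rule named the receptors, every list gene past the threshold, the 2 others of smallest p per signalling list, Ucp1, and the 5 genes most like Adrb3. The fit was tested on simulated data with 200 changed genes. Alternatives covered the test, variance model, scaling, dim genes, clusters and arrays. Same-numbered arrays did not deviate together (correlations of -0.165 to 0.002), so the numbers were not treated as pairs. Results of some listed genes are not reported here.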

Additional observations from a re-analysis of the deposited data

Results flagged for a closer look

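In groups of 4 arrays, a value was picked out when its gap to the nearest array exceeded Dixon's 95% critical share of the group's range, which chance gives in about 1 in 20 groups; 72 groups were looked at. Among the receptors this singled out Adra1d on NCD 4, at 6.31 against 6.80 to 6.88 on the other NCD arrays. Among the other genes named it singled out Rgs5 on NCD 1 (10.71, others 10.99 to 11.03), Prkch on NCD 3 (7.70, others 6.89 to 6.97), and Nr4a2 on HFD 1 (6.83, others 7.04 to 7.08) and on NCD 4 (7.58, others 7.25 to 7.30).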

How the results depend on the processing

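The count of receptors past the threshold was 0 under all 21 alternatives run. The Adrb3 difference kept its sign and stayed uncalled in all of them (adjusted p 0.229 to 0.949). It ran from -0.53 to -0.26 when 1 array was left out and from -0.58 to -0.32 otherwise, with an exact permutation p of 0.0857. Scalings that also acted on the arrays' spread made the Adrb3 difference smaller. It was -0.35 with equal median and spread, -0.33 after repeated quantile normalization and -0.32 after cyclic loess, against -0.41 after median centring. Adrb1, Adra1a and Adra2a kept their sign in every alternative that gave a value, but not their size: with 1 array left out they ran from 0.01 to 0.21, from -0.25 to -0.06 and from 0.05 to 0.26, and Adra2a was 0.33 without NCD 1 and HFD 3. Adra1b, at 0.00, ran from -0.22 to 0.10. Leaving out 1 array gave -0.0025 to 0.19 for Adra1d, -0.11 to 0.0333 for Adra2b and -0.0317 to 0.15 for Adra2c. Adra2c was also -0.0043 once medians and spreads of the arrays were equalised, and -0.025 when NCD 2 and NCD 3 were dropped. The 5 dim receptors gave no value under the filter on dim genes, which removed them. The number of genes called was 31. It was 0 with the methods' t-test (1514 at an unadjusted p under 0.05), 70 with a variance trend and robust prior, 55 with the filter on dim genes, 3 without NCD 2 and NCD 3, and 21 to 38 without 1 array. With the replicate number as a block (replicate block) 36 genes and 0 receptors were called, Adrb3 had an adjusted p of 0.464, and 0 of 8 arrays correlated best with their own number. Added after the data were seen, the same alternatives left Elovl3 uncalled in 2 of 21, the methods' t-test and the run without NCD 2 and NCD 3. The cause of these changes was not tested.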

Other observations

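Some genes near the receptors were chosen after their values were seen, and none of them passed the threshold. Ptger3, the Gi-coupled prostaglandin E2 receptor of adipocytes, had a level of 7.54, 8.04, 7.96 and 8.31 on HFD 1 to HFD 4, against 8.60, 9.36, 8.71 and 8.18 on NCD 1 to NCD 4. The groups overlapped only through HFD 4 and NCD 4 (difference -0.75 ± 0.21 SE, adjusted p = 0.309). Sctr, the Gs-coupled secretin receptor, averaged 6.37 in HFD and 6.76 in NCD with no overlap between arrays (difference -0.39, adjusted p = 0.412). Its HFD mean lay in the background range. Maoa, a monoamine oxidase that degrades noradrenaline, averaged 6.80 in HFD and 7.31 in NCD (difference -0.50, adjusted p = 0.559). Pde4d, which breaks down cyclic AMP, averaged 8.25 in HFD and 8.51 in NCD with no overlap (difference -0.26, adjusted p = 0.670). Ppargc1a, the coactivator that cyclic AMP induces in brown fat, averaged 9.41 in HFD and 9.60 in NCD (difference -0.19, adjusted p = 0.767).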
